A study of Homo sapiens with 6 samples.

Results

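Accessible chromatin at the 9p21 locus of CDKN2A was examined in a window on chromosome 9 from 20300000 to 25700000 (hg19), around a long interval in which neither deposited peak list had a peak. The 10 genes described here were chosen by their positions in and beside that interval, which itself was selected on the measured peaks; that the interval is empty is therefore a description and not a finding. They are MLLT3, FOCAD, IFNB1, KLHL9, IFNA1, MTAP, CDKN2A, CDKN2B, DMRTA1 and ELAVL2. Inside the window lay 640 of the 112610 peaks of the shHMGA1 list and 692 of the 127153 peaks of the control list.

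The data are ATAC-seq peak lists, which record where the Tn5 transposase reached DNA often enough for a peak to be called. One list was for cells infected with a lentivirus that carries a short hairpin against HMGA1 (shHMGA1), and the other for cells infected with a control lentivirus. The 3 samples of each group are labelled as a single leukaemic line, DAMI, with the disease state MPN/AML. The design text also names the SET-2 line, and the peak lists do not say whether SET-2 libraries entered them. The files hold 1 list for each group and no values for single samples. Differences therefore have no replicate check and were not tested, and read depth is unknown. Peak numbers do not check the knockdown, since the HMGA1 transcript was not measured.

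The 9p21 locus packs several growth control genes into a short stretch. CDKN2A encodes p16INK4a, which inhibits the cyclin D kinases CDK4 and CDK6, and in another reading frame p14ARF, which holds back MDM2 and so protects p53; its neighbour CDKN2B encodes p15INK4b, a related kinase inhibitor. MTAP recycles methylthioadenosine in methionine salvage, and the type I interferon genes lie on the other side of it. Loss of this locus is common in some leukaemias and in many other cancers. HMGA1, the silenced protein, binds short AT-rich stretches of DNA through its AT hooks, and it is a known component of the complex that switches on IFNB1 after virus infection.

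The start regions of a few members are shown because they are the sequences in which a promoter peak would be looked for. They are RefSeq windows on GRCh38.p14, each covering 250 bases before to 50 bases after an annotated start and read 5′ to 3′ on the gene's strand; peak coordinates in the rest of the text are hg19. Capitals mark matches to GGGCGG (the GC box bound by Sp1), TATAAA (the TATA box) or GAAATTCC (part of the NF-κB element of the IFNB1 enhancer) on either strand. The first, MLLT3, had a peak at its start, and the others lay in the interval.
MLLT3 (chr9:20622450-20622749, minus strand): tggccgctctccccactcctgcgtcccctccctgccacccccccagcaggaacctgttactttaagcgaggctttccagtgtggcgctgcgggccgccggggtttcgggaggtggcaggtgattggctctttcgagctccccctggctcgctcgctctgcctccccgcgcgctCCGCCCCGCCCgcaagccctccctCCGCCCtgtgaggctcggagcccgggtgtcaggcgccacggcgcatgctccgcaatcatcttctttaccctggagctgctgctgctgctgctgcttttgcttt
MTAP (chr9:21802386-21802685, plus strand): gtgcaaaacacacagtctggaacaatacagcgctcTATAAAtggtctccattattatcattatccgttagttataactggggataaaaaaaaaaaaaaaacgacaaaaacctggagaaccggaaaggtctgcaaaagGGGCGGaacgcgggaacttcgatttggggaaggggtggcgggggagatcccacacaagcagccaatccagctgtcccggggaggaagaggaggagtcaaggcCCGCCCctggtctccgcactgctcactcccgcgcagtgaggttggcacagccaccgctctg
CDKN2A upstream start, that of p14ARF (chr9:21995275-21995574, minus strand): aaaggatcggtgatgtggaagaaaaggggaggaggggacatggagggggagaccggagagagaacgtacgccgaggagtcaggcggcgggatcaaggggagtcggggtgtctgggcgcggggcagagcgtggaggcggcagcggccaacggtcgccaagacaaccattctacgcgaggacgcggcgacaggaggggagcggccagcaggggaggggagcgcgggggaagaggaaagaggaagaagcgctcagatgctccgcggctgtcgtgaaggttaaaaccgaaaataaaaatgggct
CDKN2A downstream start, that of p16INK4a (chr9:21974808-21975107, minus strand): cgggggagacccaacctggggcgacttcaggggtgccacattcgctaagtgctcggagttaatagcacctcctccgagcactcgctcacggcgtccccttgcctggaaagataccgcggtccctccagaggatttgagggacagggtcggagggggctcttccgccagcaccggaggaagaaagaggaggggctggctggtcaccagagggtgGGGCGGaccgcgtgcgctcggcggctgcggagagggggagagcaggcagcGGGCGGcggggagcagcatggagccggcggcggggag
IFNB1 (chr9:21077893-21078192, minus strand): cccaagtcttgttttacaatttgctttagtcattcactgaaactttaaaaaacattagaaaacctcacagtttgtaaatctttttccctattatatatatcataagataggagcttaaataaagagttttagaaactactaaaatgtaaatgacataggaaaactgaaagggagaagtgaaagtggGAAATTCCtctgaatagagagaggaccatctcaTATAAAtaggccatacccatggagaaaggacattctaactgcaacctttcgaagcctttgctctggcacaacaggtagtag

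Neither CDKN2A window was poor in CpG: the p14ARF window held 28 CpG and 63.3% GC, and the p16INK4a window 26 CpG and 69.0% GC. Across all 35116 RefSeq windows the median was 14 CpG and 58.7% GC. The IFNB1 window held 1 CpG and 34.7% GC, and had 5 runs of at least 6 A or T letters, against a median of 1 over all windows. The IFNA1 window had 39.3% GC and 4 such runs. Such runs were not particular to the interferon starts: the MTAP window also had 4, and 2 of the 6 ELAVL2 windows had 6 each. The other interferon genes of the locus were not examined here.

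RefSeq windows were found for 10 of 10 members, 16 windows in all. Of the 8 members inside the interval, 5 (KLHL9, CDKN2A, CDKN2B, DMRTA1 and ELAVL2) had at least 1 window above the median GC content of all windows. GGGCGG was present in 45.0% of all windows. It was present in the MLLT3 window, in the FOCAD window and in 9 of the 14 windows inside the interval. It occurred 3 times each in the MLLT3 and DMRTA1 windows, 4 times in the FOCAD window and in 1 ELAVL2 window, and 2 times each in the MTAP, CDKN2B and p16INK4a windows. The p14ARF, KLHL9, IFNA1 and IFNB1 windows held none. TATAAA was present in 11.5% of all windows, and among members it occurred in IFNB1, MTAP and 1 window of ELAVL2. GAAATTCC was present in 1.11% of all windows and, among members, in IFNB1. A match is a run of letters and not evidence that a factor binds.

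**Figure D1:**
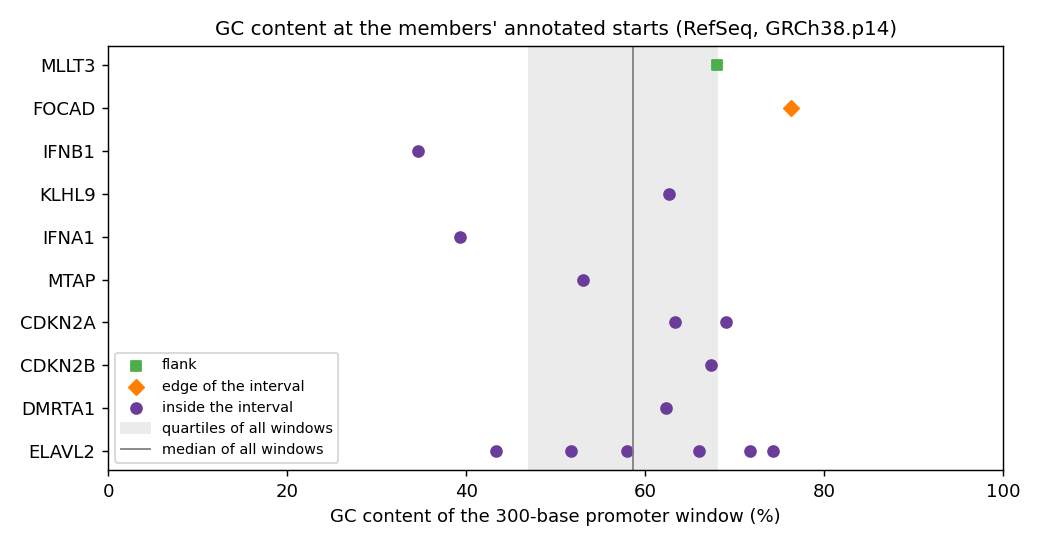
GC content in percent (x axis) of each RefSeq window at the start of a member (rows), marked by whether the member lay in the flank, at the edge or inside the interval; the shaded band and line are the quartiles and the median of all 35116 windows. Windows inside the interval ran from 34.7% for IFNB1 to 74.3% for 1 of the 6 starts of ELAVL2.

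No peak of either list lay between 20984319 and 24756408, a length of 3.77 Mb. In the shHMGA1 list alone the empty stretch began at 20981664, and in the control list alone it ended at 24756413, so the lists differed by under 3 kb at the left edge and by 5 bp at the right edge. Of the members, 8 of 10 lay wholly inside it, FOCAD lay across its left edge and MLLT3 in the left flank. Empty windows are common in these lists: on chromosomes 1 to 22 and X, 70.5% of 10 kb windows, 21.1% of 100 kb windows and 5.71% of 1000 kb windows had no peak in either list. The lack of a peak at 1 short gene is thus common in the genome as a whole. It was rare in the stretch of 9p left of the window, which is dense in peaks. On 9p from 2000001 to 20299999, before the window, 8 of 1829 windows of 10 kb and 0 of 182 windows of 100 kb were empty. To the right 9p became sparser, with 77 peaks of each list from 2 to 3 Mb after the interval. Inside the interval 376 of 376 windows of 10 kb were empty, which holds by its definition as a stretch without peaks.

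**Figure D2:**
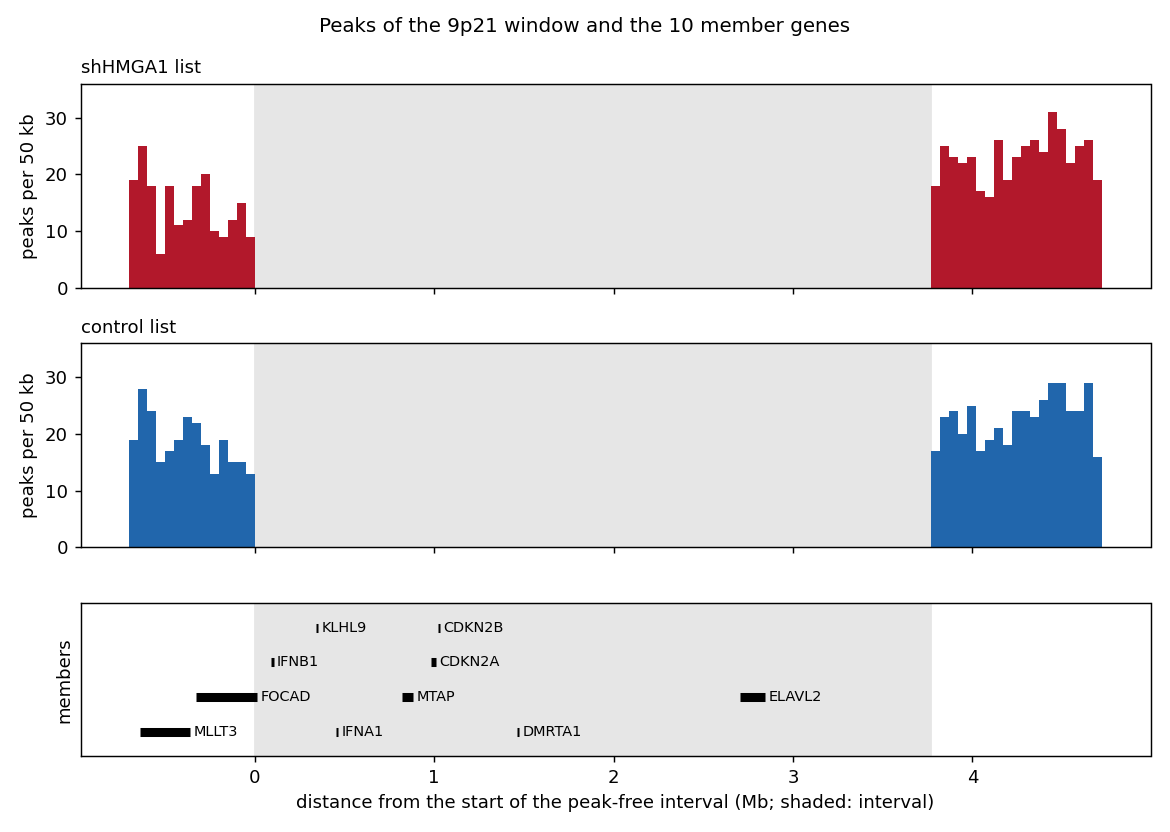
Peaks per 50 kb (y axis) against distance from the start of the interval in Mb (x axis), for the shHMGA1 list (top) and the control list (middle), with the members drawn to scale below and the interval shaded. Both lists have dense peaks up to each edge and none between, and IFNB1 to ELAVL2 fall in the empty part; the outermost bar on each side covers less than 50 kb of the window.

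The type I interferon genes lay nearest to the left edge. IFNB1, which encodes interferon β, is at 21.077 Mb, and its nearest peak on the left was 94.8 kb away in the shHMGA1 list and 92.2 kb away in the control list. KLHL9, at 21.33 Mb, encodes an adaptor of a CUL3 ubiquitin ligase used in mitosis, and its nearest peak was 343 kb away in the shHMGA1 list and 341 kb away in the control list. IFNA1, one of the interferon α genes, is at 21.44 Mb, with its nearest peak 453 kb away in the shHMGA1 list and 451 kb away in the control list. These positions are known to the last digit given. Distances were measured from the near end of the range that digit leaves, so they are the shortest that the position allows.

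The order of genes in RefSeq (GRCh38.p14) shows what else lies between members that are inside the interval. From IFNB1 to ELAVL2 it lists 22 protein-coding genes, of which 16 are type I interferon genes, 13 of them IFNA genes, with IFNB1, IFNW1 and IFNE as the rest. The remaining 6 are the members KLHL9, MTAP, CDKN2A, CDKN2B, DMRTA1 and ELAVL2. The only miRNA gene in that order is MIR31, between IFNA1 and MTAP. Its 5p mature sequence is shown with the seed, bases 2 to 8, in capitals.
hsa-miR-31-5p: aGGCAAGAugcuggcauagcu

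MTAP, CDKN2A and CDKN2B lay between IFNA1 and DMRTA1. They spanned 206 kb, from the start of MTAP at 21.803 Mb to the end of CDKN2B at 22.009 Mb. This stretch began 0.819 Mb after the interval's start and ended 2.75 Mb before its end. The bodies of MTAP (21.803 to 21.866 Mb), CDKN2A (21.968 to 21.994 Mb) and CDKN2B (22.003 to 22.009 Mb) had 0 peaks in the shHMGA1 list and 0 peaks in the control list. The nearest peak to CDKN2A was 986 kb to the left in the shHMGA1 list and 984 kb to the left in the control list, and 2762 kb to the right in both. For MTAP the nearest was 821 kb away in the shHMGA1 list and 819 kb away in the control list. The kinase inhibitor genes thus had no called accessible site in their bodies in either condition.

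DMRTA1 and ELAVL2 lay in the gene-poor right part of the interval. DMRTA1, at 22.447 Mb, encodes a DM-domain transcription factor, and the nearest peak was 1465 kb away in the shHMGA1 list and 1462 kb away in the control list. ELAVL2 (23.690 to 23.826 Mb) encodes a neuronal RNA-binding protein of the Hu family. Its nearest peak was on the right, 930.4 kb away in both lists. A peak list does not tell closed chromatin from DNA that is missing or that reads did not reach, and these cannot be told apart here.

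At the left edge, the last shHMGA1 peak ran from 20980777 to 20981663, where the summit −log10 p was 7.99, and the one before it from 20972818 to 20974987, where it was 11.3. Both overlapped control peaks, but the last control peak was a weaker one from 20983763 to 20984318, with a summit value of 4.35 and no overlap in the shHMGA1 list. At the right edge, both lists began with the same site: 24756409 to 24757300 with a summit value of 9.35 in the shHMGA1 list, and 24756414 to 24757291 with 10.0 in the control list. The third peak of the shHMGA1 list on that side, from 24764555 to 24765915, was stronger, with a summit value of 16.4. These are the peak caller's own values, not adjusted for multiple testing and not normalized between the lists.

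Peaks continued up to both edges. The 50 kb just before the interval held 9 shHMGA1 and 13 control peaks, and the 13 bins of that flank held 6 to 25 in the shHMGA1 list and 13 to 28 in the control list. The control number next to the left edge thus equalled the lowest of its flank. The 50 kb just after the interval held 18 shHMGA1 and 17 control peaks, within the range of 16 to 31 shHMGA1 peaks and 17 to 29 control peaks over all 18 bins. The control number next to the right edge was thus also the lowest of its flank. The longest space between neighbouring peaks within the left flank was 20.9 kb in the shHMGA1 list and 14.3 kb in the control list, and within the right flank 10.7 kb and 8.12 kb in the same lists.

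FOCAD, which encodes focadhesin, crossed the left edge: the last 11.7 kb of its body, given as 20.658 to 20.996 Mb, lay in the interval. It held 84 shHMGA1 and 103 control peaks, a ratio of 0.816 (95% exact binomial interval 0.604 to 1.099). The peak at its start ran from 20657767 to 20659902 in the shHMGA1 list, with a summit value of 17.99, and from 20657782 to 20659959 in the control list, with 18.5. Its most significant peak lay further inside, from 20682773 to 20685561 in the shHMGA1 list (26.5, rank 94 of all peaks) and from 20681619 to 20685545 in the control list (27.1, rank 81). Among the 10% most significant peaks of their lists were 8 of its shHMGA1 peaks and 6 of its control peaks. FOCAD thus had peaks at its start and along its body in both conditions.

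MLLT3, which encodes AF9, a chromatin reader that recruits elongation factors and is a frequent fusion partner of KMT2A in leukaemia, lay wholly in the left flank. The most significant of its peaks covered the upper end of its body at 20.623 Mb, where the minus-strand gene starts. That peak ran from 20618218 to 20625828 in the shHMGA1 list, 7611 bp wide with a summit value of 23.3 (rank 197), and from 20618962 to 20625811 in the control list, 6850 bp wide with 23.5 (rank 193). The next in rank was an intragenic site, from 20381987 to 20383231 in the shHMGA1 list (19.1) and from 20381992 to 20383248 in the control list (20.5). Both leading sites were thus present in both conditions.

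The body of MLLT3 held 83 shHMGA1 and 118 control peaks, a ratio of 0.703 (interval 0.525 to 0.939), against 0.886 for the whole lists, which lay inside that interval. The interval included 1 when equal numbers of peaks were taken from each list (0.778, 0.457 to 1.31) and when peaks within 150 bp were merged (0.743, 0.547 to 1.005). The summed widths of peaks touching the body were 22.2% of its length in the shHMGA1 list and 32.4% in the control list. These sums include the part of the start peak that runs beyond 20.623 Mb. The peaks without a partner were 8 of 83 in the shHMGA1 list, 9.64% (exact interval 4.25 to 18.1), and 45 of 118 in the control list, 38.1% (29.4 to 47.5). Over the whole lists, 14.8% of shHMGA1 peaks and 24.9% of control peaks had no partner. In FOCAD, 13 of 84 shHMGA1 peaks (15.5%, interval 8.51 to 25.01) and 37 of 103 control peaks (35.9%, 26.7 to 46.0) had none. These intervals hold counting error alone and leave out any spread between cultures. Many sites are in both lists, yet the intervals take the lists as independent.

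The flanks on either side of the interval differed in how the lists compared. The left flank held 202 shHMGA1 and 260 control peaks, a ratio of 0.777 (interval 0.643 to 0.937), and the right flank 438 and 432 peaks in the same lists, a ratio of 1.01 (0.886 to 1.16). The whole-list ratio of 0.886 lay inside the left interval. It lay just below the lower end of the right one (0.8856 against 0.8857). Peaks without a partner were 22 in the shHMGA1 list (10.9%) and 91 in the control list (35.0%, interval 29.2 to 41.1) on the left, and 52 in the shHMGA1 list (11.9%) and 46 in the control list (10.6%, 7.90 to 13.9) on the right. Over the whole lists the shares were 14.8% of shHMGA1 and 24.9% of control peaks. Of the flank shares, only that of the control list on the left was above its whole-list share. Most peaks without a partner were weak. Of those in the left flank, 22 of 22 in the shHMGA1 list and 81 of 91 in the control list had a summit value under 5.24, the joined median of the lists. Of those in the right flank, 50 of 52 in the shHMGA1 list and 45 of 46 in the control list were under it. Most peaks of the flanks were under it too. Those at or above it were 59 of 202 shHMGA1 and 100 of 260 control peaks on the left, and 181 of 438 and 194 of 432 on the right. When a partner had to share a reciprocal overlap of 50%, the peaks without one were 34.7% in the shHMGA1 list and 49.6% in the control list on the left, and 39.95% in the shHMGA1 list and 39.1% in the control list on the right, so the contrast between the sides of the control list was smaller. In 50 kb bins the shHMGA1 number was the lower in 10 of 13 bins on the left and in 8 of 18 on the right. On 9p before the window, 590 of 7339 shHMGA1 peaks (8.04%) and 994 of 7670 control peaks (13.0%) had no partner. With the peaks at or above the joined median the left ratio was 0.590 (0.420 to 0.822) and the right ratio 0.933 (0.758 to 1.15), against 0.873 for the whole lists. With equal numbers of peaks from each list, which sets the whole-list ratio to 1, the left ratio was 0.789 (0.553 to 1.12) and the right ratio 1.27 (1.02 to 1.59). In both settings the left ratio was below that of the whole lists and the right ratio above it.

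Widths were compared at sites where 1 peak of each list overlapped. Over 136 such pairs in the left flank the shHMGA1 peak was the wider in 39.0%, and the median of log2 shHMGA1 over control width was -0.06. Over 248 pairs in the right flank it was the wider in 53.2%, with a median of 0.02. Over all 83581 pairs of the lists it was the wider in 44.8%, with a median of -0.03.

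**Figure D3:**
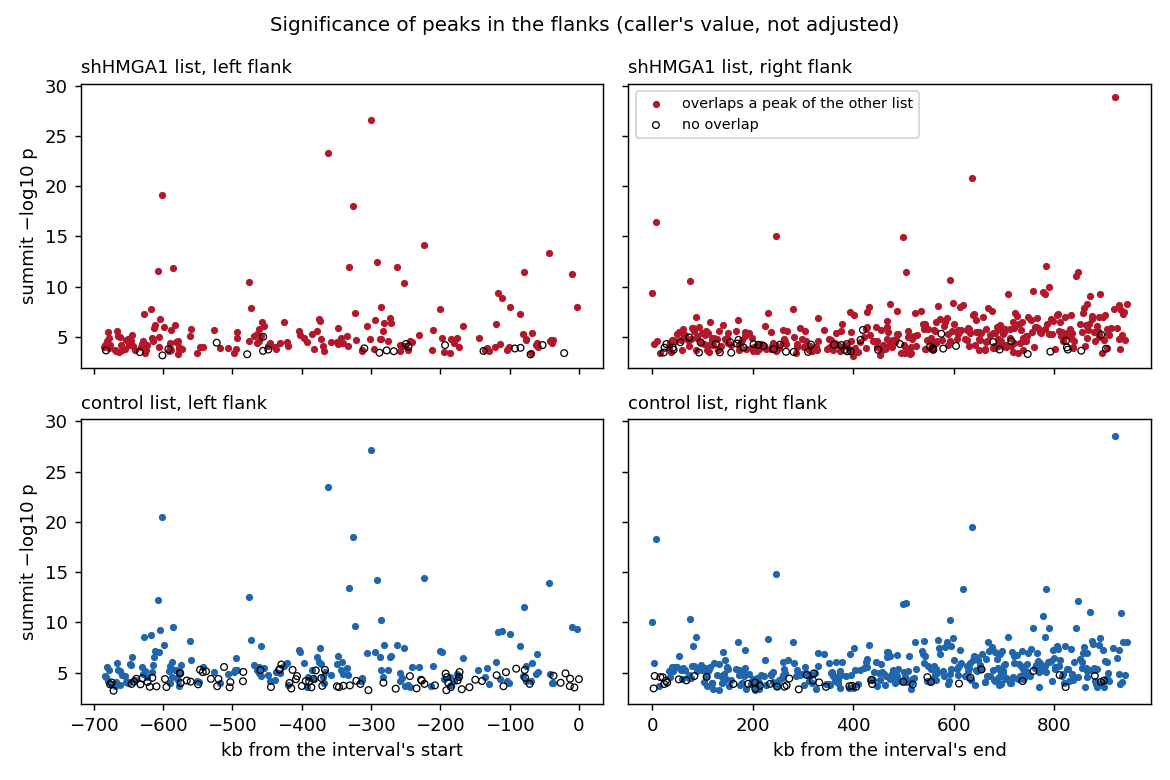
Summit −log10 p (y axis, the caller's unadjusted value) of each peak against distance from the interval in kb (x axis), for the shHMGA1 list (top) and the control list (bottom), left and right flank; open circles have no overlap in the other list. Open circles are most numerous in the left flank of the control list (91 of 260).

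The left flank had fewer peaks per Mb than the right one in both lists. Density was 295 per Mb on the left and 464 per Mb on the right in shHMGA1 cells, and 379.9 and 458 per Mb in the same order in control cells. Peaks covered 23.3% of the left flank in shHMGA1 cells and 30.8% in control cells. The right flank was covered to 50.8% in shHMGA1 cells and 49.6% in control cells. Both flanks had a smaller share of very significant peaks than the whole lists. In the left flank 13 shHMGA1 peaks (6.44%) and 11 control peaks (4.23%) were in the top 10% of their lists. In the right flank 9 shHMGA1 peaks (2.05%) and 11 control peaks (2.55%) were. The left shares were thus larger. In the control list the number of such peaks was 11 on both sides, and only the total was smaller on the left. In the shHMGA1 list the left flank held more such peaks and fewer peaks in total. The most significant peak of the right flank, picked after its value was seen, ran from 25676939 to 25680056, with a summit value of 28.9 (rank 60), in the shHMGA1 list and from 25676858 to 25680045, with a summit value of 28.6 (rank 65), in the control list.

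Along 9p, the ratio of shHMGA1 to control peaks was lowest, by a small margin, in the pair of 1-Mb windows nearest to the left edge. It was 0.821 (307 shHMGA1 and 374 control peaks, interval 0.704 to 0.957) in the 1 Mb before the interval and 0.840 (289 and 344 peaks, 0.716 to 0.985) in the 1 Mb before that. Both intervals included the whole-list ratio of 0.886. In the 16 windows of 1 Mb further left the ratio ran from 0.845 to 1.05, with a median of 0.975. The 1 Mb after the interval held 465 shHMGA1 and 463 control peaks, a ratio of 1.00. The difference between the sides was not tested.

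**Figure D4:**
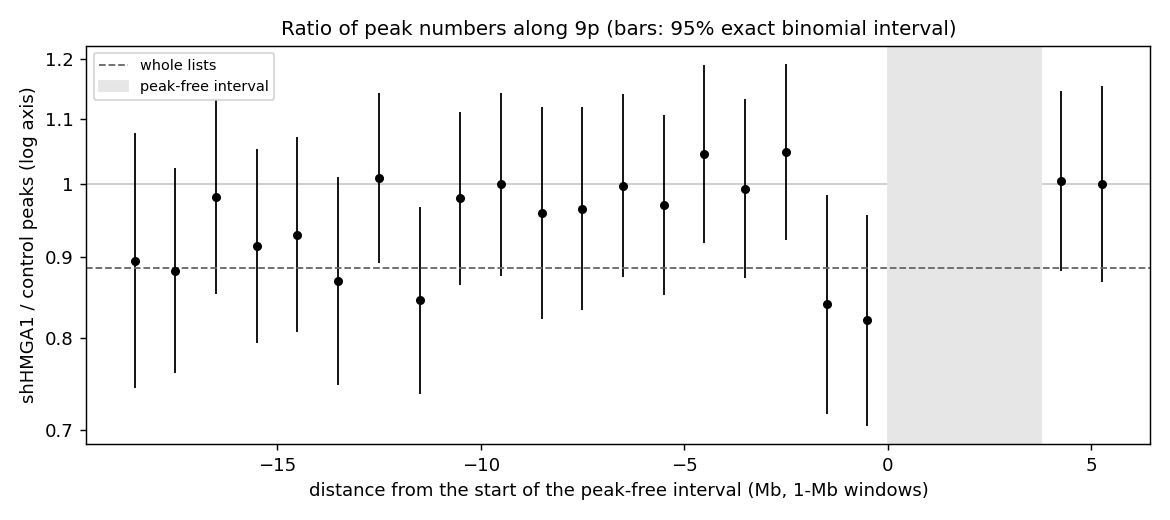
Ratio of shHMGA1 to control peak numbers (y axis, log scale) in 1-Mb windows counted from the edges of the interval (x axis, Mb from its start); bars are 95% exact binomial intervals, which cover counting error only, and the dashed line is the whole-list ratio of 0.886. The pair of windows left of the interval lie at 0.821 and 0.840, and the nearest pair right of it at 1.00.

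The interval differed from other long stretches without peaks in what surrounded it. There were 31 others of 1 Mb or more outside centromeric, variable and stalk bands, from 1.02 to 1.85 Mb long. The 1-Mb flanks of those 31 held from 1 to 46 shHMGA1 peaks (median 8) and from 1 to 48 control peaks (median 9.5). The flanks of the 9p21 interval held 307 and 465 shHMGA1 peaks, and 374 and 463 control peaks. Its flanks were thus the densest among these 32 stretches in both lists; the interval was chosen on these lists, so this is a description.

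**Figure D5:**
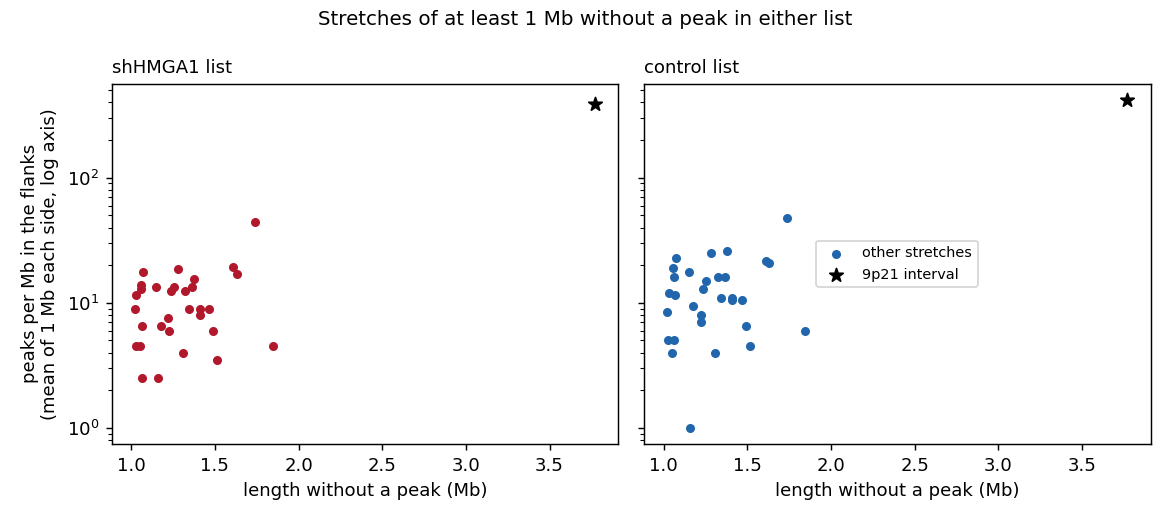
Mean number of peaks in the 1 Mb on each side (y axis, log scale) against length (x axis, Mb) for 32 stretches of at least 1 Mb without a peak in either list, in the shHMGA1 list (left) and the control list (right). The 9p21 interval (star) stands apart at 3.77 Mb, with dense flanks.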

How the data were processed

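Peaks were called with Genrich on hg19, per the submitters' processing notes. Not given in the sources used here were its version and settings, the aligner, and how a group's 3 samples became 1 list. Each list was given its group by its own name. As deposited, each summit carries the caller's unadjusted −log10 p. The deposited signal column, the area under the significance curve, was used only to break ties when equal numbers of peaks were taken; its smallest value is 200.0 in both lists. Positions are as deposited, written 1-based.

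Peaks with an overlap of 1 bp or more between the lists counted as shared (partners). Coverage sums the full widths of the peaks that touch a stretch, with any part beyond its ends. Member positions on hg19 were given in Mb with the choice of genes, so no hg19 exon, intron or UTR is named; single positions were taken as known to their last digit. The members, lists and comparisons were chosen with earlier results of these data known. Peaks named singly were the 3 nearest to the interval on each side and the most significant of each member, by rule. The peak at the start of FOCAD, the second peak of MLLT3 and the top peak of the right flank were picked after their values were seen. Bands came from circlize 0.4.16 in R 4.3.3. The overlap and interval counts were tested on simulated lists. RefSeq tables (GRCh38.p14) gave names, gene order and sequences only. The CDK inhibitor, p53, salvage and interferon receptor genes planned as a pathway list were not analysed here, because no hg19 positions were at hand. Scripts ran in Python 3.11.15 with pandas 2.3.3, numpy 2.4.6, matplotlib 3.10.9 and scipy 1.17.1. Intervals are 95% exact (Clopper-Pearson) binomial intervals. Read depth is unknown.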

Additional observations from a re-analysis of the deposited data

How the results depend on the processing

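The length of the peak-free interval (3.77 Mb in each list alone, with the stricter threshold and with equal numbers) and the number of members without a peak (8) were the same under each alternative tried for them. Single lists and stricter settings use a part of the same peaks, so the length and the number could only stay or rise. Members extended by 10 kb could not reach a peak either, since the nearest lay 92.2 kb from IFNB1. The stable values are therefore a description and not a check. With every peak and an overlap of 1 bp, 11.6% of shHMGA1 and 19.8% of control peaks of the window had no partner. With peaks at or above the joined median summit value of 5.24, the left flank ratio was 0.590. At that threshold 27.2% of control peaks of the window had no partner when the partner had to pass it too. These shares were 6.78% in the shHMGA1 list and 44% in the control list on the left, and 12.7% and 18.6% in the same lists on the right. With a partner of any summit value, 0.833% of shHMGA1 and 3.74% of control peaks at or above it had none. With 56305 peaks from each list, the right flank ratio was 1.27. A reciprocal overlap of 50% left 38.3% of shHMGA1 and 43.1% of control peaks of the window without a partner, and a partner within 500 bp left 6.09% and 12.9% in the same lists. Merging peaks within 150 bp gave densities of 389 per Mb on the right in shHMGA1 cells, and 333 on the left and 388 on the right in control cells. The remaining 15 values of these main results stayed within the counting interval of the main value, within 10% for the length or within 1.5 times for the member count. The cause of these shifts was not tested. The ratios for MLLT3 and FOCAD, the flank shares, the merged ratios and the partner of any summit value were tried after seeing the data. No paired analysis was possible because the files hold a single list for each group and no values by replicate, which also prevents leaving out a replicate. Unknown depth limits every count of weak peaks.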

Other observations

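Peaks right of the interval became sparser beyond the window. In 100 kb windows counted from the interval's end, the shHMGA1 list held 36 to 55 peaks and the control list 32 to 55 in each of the first 18, and 7 peaks in both lists in the next one. The 3 windows after that held 16, 14 and 20 peaks in the shHMGA1 list and 17, 17 and 16 in the control list, and the following one held 4 in both lists. The fourth 1-Mb window after the interval held 17 shHMGA1 and 19 control peaks.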
